A study of Mus musculus with 8 samples.

Results

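The genes described here encode the enzymes, the transporter and the receptors of the leukotriene pathway: Pla2g4a, Alox5, Alox5ap, Lta4h, Ltc4s, Abcc1, Ltb4r1, Ltb4r2, Cysltr1 and Cysltr2. They were chosen as the enzyme that the compound SC-57461A inhibits together with the steps and receptors around it. All 10 were found by gene symbol among the 25367 genes of the table. Transcripts were measured by RNA-seq in ILC2s (group 2 innate lymphoid cells), which carry no antigen receptor and are a source of type 2 cytokines. The cells were wild type and had been sorted from colons of the C57BL/6 strain. All were kept for 5 days in IMDM medium with 4 cytokines at 10 ng/mL each, namely IL-33, IL-25, IL-7 and IL-2. They then received vehicle (4 libraries) or SC-57461A (4 libraries) for 16 hours, at a dose that the sources used here do not state. Whether the replicates were separate animals or cultures is not in the labels, and the p-values thus refer to the variation among these libraries, which could be technical.

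Leukotrienes are lipid mediators made from arachidonic acid. Cytosolic phospholipase A2 (Pla2g4a) frees arachidonate from membranes, and 5-lipoxygenase (Alox5), helped by its activating protein FLAP (Alox5ap), oxidises it to the unstable epoxide leukotriene A4. Leukotriene A4 hydrolase (Lta4h) turns the epoxide into leukotriene B4 (LTB4), which attracts leukocytes through its receptors, while leukotriene C4 synthase (Ltc4s) joins it to glutathione to begin the cysteinyl leukotrienes, which are exported by Abcc1 and are known to activate ILC2s through Cysltr1. No lipid and no protein was measured, so the values below concern transcripts.

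The libraries held 47376196 to 71155654 counts. Their summed FPKM (fragment counts scaled by gene length and depth) parted them into 2 library sets that cross the treatments, for which the labels give no reason. Set A (sums of 390628 to 428541) comprised replicates 1 and 2 of vehicle with replicates 2 and 3 of SC-57461A, and set B (316414 to 336044) the remaining 4 libraries. The 10 ILC2 markers, such as Gata3, Il1rl1, Il5 and Il13, summed to 11836 to 17529 CPM (counts scaled to library size with TMM factors) in every library. The 10 markers of macrophages, monocytes and neutrophils summed to 36.2 to 54.5 CPM in set A and 7.47 to 9.74 CPM in set B, where Lyz2, S100a8, S100a9, Csf1r and C1qa were at 0 counts in every library. In bulk RNA, fewer cells that express a gene and less RNA per cell cannot be told apart. Where a gene had no count, the limit is 3 counts, which is 0.0422 to 0.0633 CPM depending on the library and covers counting error only.

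The pathway was present in parts. By FPKM, which allows levels of different genes to be compared, the receptors Ltb4r1 and Cysltr1 and the hydrolase Lta4h stood highest, at 107 ± 16, 103 ± 17.6 and 47.6 ± 4.43 FPKM (SD, n = 8 libraries of both treatments). Cysltr2 followed at 12.6 ± 1.42 FPKM, the exporter Abcc1 at 6.31 ± 2.15 FPKM and Alox5 at 0.999 ± 0.324 FPKM. The remaining 4 members, Ltb4r2, Alox5ap, Pla2g4a and Ltc4s, were under 1 FPKM in every library. So a receptor each for LTB4 and for the cysteinyl leukotrienes, and the enzyme that makes LTB4, had abundant transcripts. The lipoxygenase Alox5 did not. The means of the phospholipase, the lipoxygenase partner FLAP and the synthase of leukotriene C4 were lower still.

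**Figure D1:**
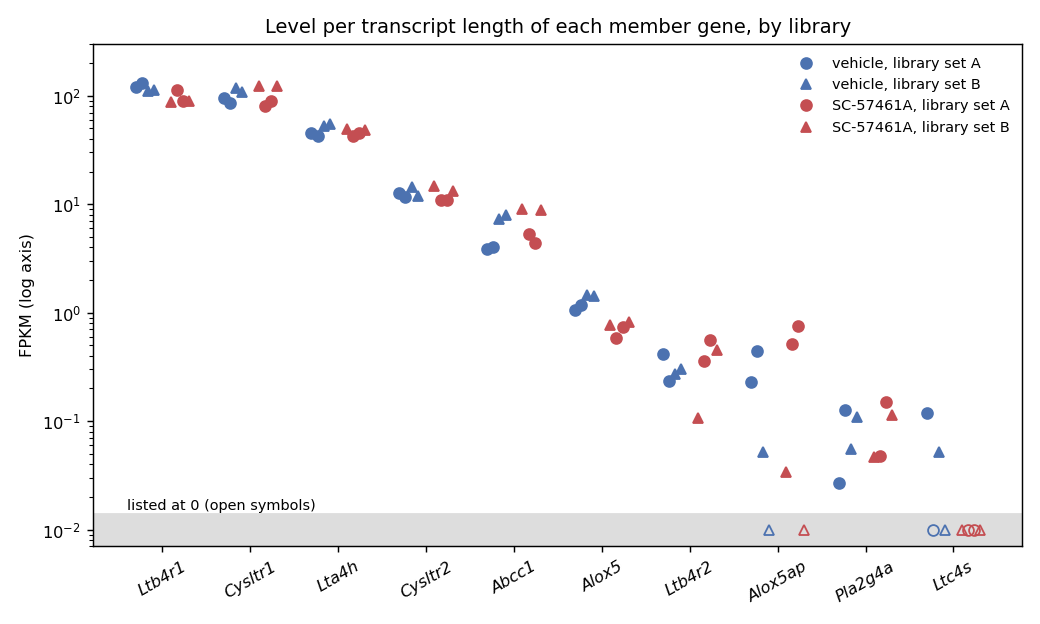
FPKM of each of the 10 genes in each of the 8 libraries on a log axis, ordered by mean; blue is vehicle, red SC-57461A, circles library set A and triangles library set B, and open symbols in the grey band are values listed at 0. Ltb4r1 and Cysltr1 lay between 80.5 and 131 FPKM in every library, and Ltb4r2, Alox5ap, Pla2g4a and Ltc4s under 1 FPKM.

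The order of the levels was clear in the upper part and not in the lower. Ltb4r1 was above Cysltr1 in 5 of 8 libraries, so these 2 genes were not separated. Cysltr1, Lta4h, Cysltr2, Abcc1, Alox5 and Ltb4r2 followed each other in that order in 8 of 8 libraries with no overlap of neighbouring ranges. Below them, Ltb4r2 was above Alox5ap in 5 libraries and Alox5ap above Pla2g4a in 4, and their ranges overlapped. The length behind the authors' FPKM, worked out from count, total and FPKM, was 13940 bases for Abcc1, whose longest annotated transcript has 6792 bases. CPM per kilobase of the longest transcript gave Abcc1 a mean of 13.0 and Cysltr2 one of 14.5. On that scale their ranges overlapped (8.05 to 18.2 and 12.8 to 16.7) and Abcc1 was above Cysltr2 in 3 of 8 libraries, vehicle replicate 4 and SC-57461A replicates 1 and 4, so the order of these genes depends on the length used. The means of the first 6 genes kept their order, while that of Ltb4r2 (0.152) came below those of Alox5ap (0.21) and Pla2g4a (0.182).

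SC-57461A was then compared with vehicle. In the pooled fit over all 8 libraries, none of the 9 members with enough counts to be fitted was higher or lower at an adjusted p under 0.05 (edgeR quasi-likelihood test, Benjamini-Hochberg over 15095 genes). That fit called 0.331% of all genes, 0.272% higher and 0.0596% lower. An unadjusted p under 0.05 was found for 6.68% of all genes and, of the members, for Alox5 alone. With library set as a term, 2 members were lower (Alox5 and Ltb4r1) and 1 was higher (Abcc1), where 5.33% of all genes were called, 2.50% lower and 2.83% higher, and 22.4% had an unadjusted p under 0.05. The median log2 fold change of the 9 members was 0.055 in the pooled fit and 0.046 with the term, and that of all genes 0.0094 and 0.0044. Ltc4s did not pass the filter on low counts.

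**Figure D2:**
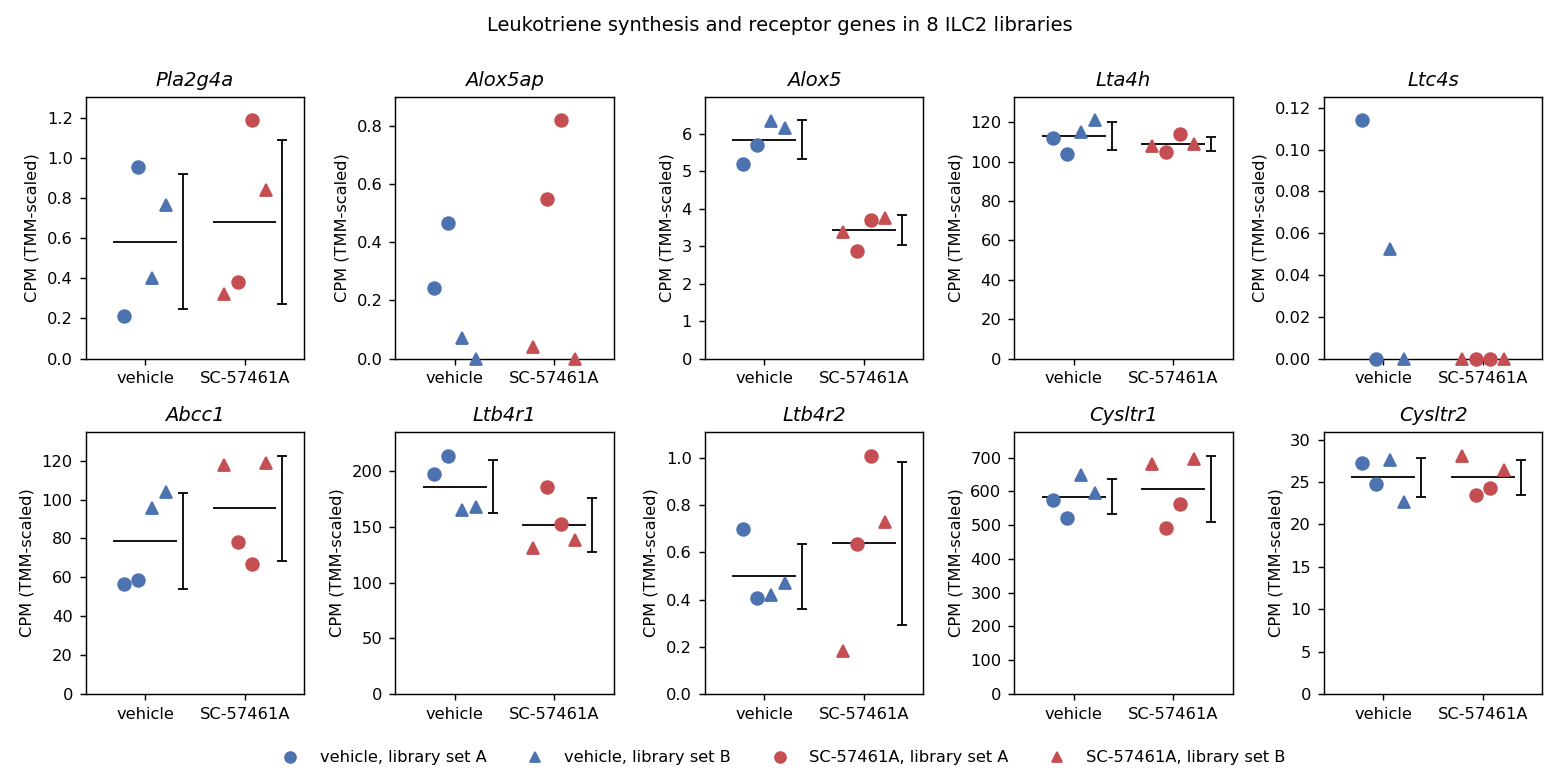
CPM of the 10 genes in each library; colours and symbols as in the FPKM plot, horizontal bars are group means and error bars SD (n = 4), left out for Alox5ap and Ltc4s, which have libraries at 0. The Alox5 values of vehicle and SC-57461A do not overlap, Abcc1 parts by library set, and Ltb4r1 is lower with SC-57461A within either set.

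Alox5, the lipoxygenase that begins leukotriene synthesis (ENSMUSG00000025701, chromosome 6, 116410077 to 116461178 on the minus strand in mm10), was the member that differed most clearly. Vehicle replicates 1 to 4 had 5.19, 5.70, 6.34 and 6.15 CPM (280 to 457 counts), and SC-57461A replicates 1 to 4 had 3.37, 2.88, 3.71 and 3.74 CPM (136 to 195 counts). Every SC-57461A library lay below every vehicle library. Of the fitted members 1 showed no overlap between treatments; over all genes 6.13% did, 3.13% with SC-57461A lower and 3.01% with it higher.

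The log2 fold change of Alox5 was -0.77 (95% interval -1.10 to -0.44), a level 0.586 times that of vehicle. The pooled fit gave an edgeR adjusted p of 0.112 and the fit with library set as a term 0.00875; over 29 alternatives the value was -0.86 to -0.40 and the adjusted p 9.53e-05 to 0.481, past the threshold in 11. Fitted alone, set A gave -0.72 and set B -0.82 (edgeR adjusted p = 0.221 and 0.125), and the difference between the sets was not past the threshold (-0.091, edgeR adjusted p = 0.986). With the set term, Alox5 remained past the threshold whichever of the 8 libraries was left out (adjusted p 0.00837 to 0.0381).

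Alox5 is known as a gene of myeloid cells and mast cells. In set B, 5 of the 10 myeloid markers were at 0 in every library. Another 2, Cd68 (6.04 to 7.92 CPM) and Ly6g (1.06 to 2.07 CPM), had at least 10 counts in every library. Alox5 was at 3.37 to 6.34 CPM in set B and its log2 fold change there was -0.82. Myeloid markers summed to 9.04 to 49.0 CPM in vehicle and 7.47 to 54.5 CPM in SC-57461A. Of 9 markers of mast cells, basophils and eosinophils, 6 had a row in the table and summed to 11.5 to 20.7 CPM in vehicle and 8.21 to 15.5 CPM in SC-57461A, nearly all of it from Mcpt8, a basophil protease (15.6 and 11.4 CPM). Mcpt2 and Prg2 were at 0 in every library. Cpa3 and Mcpt1 were at 0 in every SC-57461A library. Their vehicle means were only 0.093 and 0.129 CPM, from at most 12 and 25 counts in a library. Epx was at 0 in every vehicle library and at most 2 counts with SC-57461A. The part of such cells in the Alox5 result was not tested.

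Promoter windows of 300 bases (most of them upstream of the start site, RefSeq, GRCm38.p6, the assembly that mm10 names) were at hand for 6 members: Alox5, Ltb4r1, Lta4h, Ltc4s, Pla2g4a and Cysltr2. Those of Alox5 (chr6:116461129-116461428, minus strand) and Ltb4r1 (chr14:55765712-55766011, plus strand) are shown because these genes were the members lower with SC-57461A once library set was held, and that of Lta4h (chr10:93453146-93453445, plus strand) because it encodes the target of the compound. Capitals mark the GC box GGGCGG, the letters bound by the transcription factor SP1, on either strand.
Alox5: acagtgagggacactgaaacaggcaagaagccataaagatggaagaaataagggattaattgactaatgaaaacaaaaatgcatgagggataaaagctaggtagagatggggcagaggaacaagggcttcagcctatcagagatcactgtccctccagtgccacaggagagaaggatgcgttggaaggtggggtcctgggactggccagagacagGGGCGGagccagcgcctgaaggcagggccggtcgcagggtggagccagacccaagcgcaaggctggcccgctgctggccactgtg
Ltb4r1: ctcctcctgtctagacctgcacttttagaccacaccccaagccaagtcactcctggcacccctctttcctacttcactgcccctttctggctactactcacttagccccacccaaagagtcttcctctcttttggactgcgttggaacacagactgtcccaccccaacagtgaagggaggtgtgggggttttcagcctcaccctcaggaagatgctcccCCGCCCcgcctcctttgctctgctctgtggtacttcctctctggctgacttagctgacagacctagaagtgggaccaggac
Lta4h: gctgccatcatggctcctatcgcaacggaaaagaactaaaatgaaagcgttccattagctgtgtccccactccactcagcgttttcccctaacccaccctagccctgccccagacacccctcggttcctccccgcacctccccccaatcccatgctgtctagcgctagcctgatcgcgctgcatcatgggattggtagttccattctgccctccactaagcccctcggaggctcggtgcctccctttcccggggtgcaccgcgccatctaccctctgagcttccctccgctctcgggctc
Alox5 held 1 GC box starting 35 bases before the start site, and Ltb4r1 held 1, read on the opposite strand, starting 31 bases before it. The windows of Lta4h, Ltc4s, Pla2g4a and Cysltr2 held none. Of all 32851 windows, 35.7% held at least 1. The sterol response element TCACNCCAC (in 1.24% of windows) and the EGR motif GCGNGGGCG (5.55%), searched on both strands, were not among the letters of any of these windows, and TATAAA (13.6%) was in 1 of them, a window inside the Pla2g4a gene. The EGR motif and the GC box share some letters and can overlap. These matches describe the sequence and do not show that a factor binds.

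Lta4h, the enzyme that SC-57461A inhibits (ENSMUSG00000015889, chromosome 10, 93453396 to 93484896, plus strand), stood at nearly the same level with and without the compound. Vehicle replicates 1 to 4 had 112, 104, 115 and 121 CPM, and SC-57461A replicates 1 to 4 had 108, 105, 114 and 109 CPM. The groups overlapped, and the spread of SC-57461A lay within that of vehicle. In set B both SC-57461A libraries were below both vehicle libraries, while in set A the treatments overlapped. The log2 fold change was -0.048 with a 95% interval of -0.25 to 0.16, that is 0.838 to 1.12 times the vehicle level (edgeR adjusted p = 0.999; 0.728 with library set as a term). Set A alone gave 0.029 and set B alone -0.12. The compound acts on the enzyme, and its activity was not measured.

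The phospholipase and FLAP were too low for a firm statement. Pla2g4a (ENSMUSG00000056220, chromosome 1, 149829618 to 149961290, minus strand) had 13, 47, 23 and 57 counts in vehicle replicates 1 to 4 and 16, 18, 58 and 44 in SC-57461A replicates 1 to 4. High and low libraries occurred in both treatments and in both sets. Its log2 fold change was 0.23 (edgeR adjusted p = 0.999), that is 0.461 to 2.98 times the vehicle level, and no difference was detectable at this depth. Without vehicle replicate 1 the value was -0.055 and without SC-57461A replicate 3 it was -0.18.

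Alox5ap (ENSMUSG00000060063, chromosome 5, 149265058 to 149288045, plus strand) followed the library sets rather than the treatment. In set A it had 15 and 23 counts with vehicle and 26 and 40 with SC-57461A. In set B it had 4 and 0 counts with vehicle and 2 and 0 with SC-57461A. The ranges of the sets did not overlap, as for 44.0% of all genes. The pooled log2 fold change was 0.86 (95% interval -2.33 to 4.06) and did not pass (edgeR adjusted p = 0.999). It was 0.015 without SC-57461A replicate 3 and 1.73 without vehicle replicate 2, the lowest and highest of its alternatives. The myeloid marker Lyz2 parted in the same way, with 851 to 1607 counts in each library of set A and 0 in each of set B, and so did Mgst1, a related membrane enzyme, with 0.352 to 0.599 FPKM in set A and 0 in set B. Some markers of other cell types parted likewise and others did not. In every library of set B, 5 of 9 epithelial and tuft cell markers were at 0, and 1 of 5 endothelial and stromal markers. Of these, Krt8, Krt19 and Cdh1 had 50 to 609, 49 to 423 and 73 to 139 counts in set A. Dclk1 and Pou2f3 were near 0 in set A too, at 0 to 8 and 0 to 3 counts. The endothelial marker Cdh5 had 85 to 175 counts in set A. By contrast, Epcam had 438 to 575 counts in set A and 353 to 785 in set B. Pecam1 had 2976 to 4573 counts in set A and 3632 to 6066 in set B. Where the Alox5ap counts came from was not tested. The antisense gene Gm19719 overlaps Alox5ap, and no source used here states whether counting kept the strands apart.

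Ltc4s (ENSMUSG00000020377, chromosome 11, 50236469 to 50238532, minus strand) had 7 counts in vehicle replicate 1, 3 in vehicle replicate 3 and 0 in the other 6 libraries. It was not fitted, and no fold is given. The antisense gene Gm26542 overlaps it. At these depths Ltc4s transcripts were at most 0.114 CPM.

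Abcc1, which carries leukotriene C4 and glutathione conjugates out of the cell (ENSMUSG00000023088, chromosome 16, 14361558 to 14475737, plus strand), differed more by library set than by treatment. In set A, vehicle replicates 1 and 2 had 56.6 and 58.4 CPM and SC-57461A replicates 2 and 3 had 78.2 and 66.7 CPM. In set B, vehicle replicates 3 and 4 had 95.8 and 104 CPM and SC-57461A replicates 1 and 4 had 118 and 119 CPM. Within either set, both SC-57461A libraries were above both vehicle libraries. The treatments overlapped across sets, since the mean of set B was 1.68 times that of set A. With 2 libraries of each treatment in a set, separation was common among the members. It also occurred for Alox5ap and Cysltr2 in set A and for Lta4h and Cysltr1 in set B, none of which was called. The share of all genes that separate within a set was not counted.

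The pooled fit gave Abcc1 a log2 fold change of 0.28 (95% interval -0.33 to 0.89, edgeR adjusted p = 0.986). With library set as a term it was 0.29 (0.14 to 0.44, edgeR adjusted p = 0.0367). Fitted alone, set A gave 0.34 and set B 0.24 (edgeR adjusted p = 0.24 and 0.275). The call needed that term and was lost in 7 of 8 fits with the term that left out a library, the exception being the fit without SC-57461A replicate 3 (adjusted p = 0.0306).

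Ltb4r1, the high-affinity LTB4 receptor (ENSMUSG00000046908, chromosome 14, 55765962 to 55768494, plus strand), pointed the other way. In set A, vehicle replicates 1 and 2 had 198 and 214 CPM and SC-57461A replicates 2 and 3 had 186 and 153 CPM. In set B, vehicle replicates 3 and 4 had 165 and 168 CPM and SC-57461A replicates 1 and 4 had 131 and 138 CPM. Within either set the SC-57461A libraries were below the vehicle libraries, and across sets 14 of the 16 pairs of a vehicle and an SC-57461A library had SC-57461A lower. As for Abcc1, the share of all genes with such a pattern was not counted.

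The pooled log2 fold change of Ltb4r1 was -0.30 (95% interval -0.63 to 0.034, edgeR adjusted p = 0.799). With library set as a term it was -0.30 (-0.46 to -0.14, edgeR adjusted p = 0.038), or 0.814 times the vehicle level. Fitted alone, set A gave -0.28 and set B -0.32 (edgeR adjusted p = 0.351 and 0.177). The value was below 0 in 29 of 29 alternatives (-0.41 to -0.23) and past the threshold in 3 of them; of the 8 fits with the set term that left out a library, 1 kept the call, that without SC-57461A replicate 2 (-0.37, adjusted p = 0.0145).

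Ltb4r2, the low-affinity LTB4 receptor, lies upstream of Ltb4r1 on the same strand (ENSMUSG00000040432, chromosome 14, 55761428 to 55763229). It had 43, 20, 24 and 35 counts in vehicle replicates 1 to 4 and 9, 30, 49 and 38 in SC-57461A replicates 1 to 4. The lowest and the highest library were both SC-57461A. The log2 fold change was 0.35 (0.575 to 2.83 times the vehicle level at 95%, edgeR adjusted p = 0.999). A difference from the neighbouring Ltb4r1 in response was not tested.

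Cysltr1, the receptor with the highest affinity for leukotriene D4 (ENSMUSG00000052821, chromosome X, 106574346 to 106603679, minus strand), had the highest counts of all members. Vehicle replicates 1 to 4 had 573, 521, 648 and 595 CPM and SC-57461A replicates 1 to 4 had 679.7, 491, 562 and 696 CPM. The groups overlapped, while the sets did not, as for 44.0% of all genes. Set A lay at 491 to 573 CPM and set B at 595 to 696 CPM. In set B both SC-57461A libraries were above both vehicle libraries, while in set A the treatments overlapped. The log2 fold change was 0.055 (95% interval -0.26 to 0.37, edgeR adjusted p = 0.999). Set A alone gave -0.051 and set B alone 0.14; the difference between the sets was not past the threshold (0.20, edgeR adjusted p = 0.915). The protein-coding gene Gm5127 overlaps Cysltr1 on the opposite strand, so its share of these counts is uncertain.

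Cysltr2, the other cysteinyl leukotriene receptor (ENSMUSG00000033470, chromosome 14, 73029128 to 73049114, minus strand), was the member with the smallest difference. Vehicle replicates 1 to 4 had 27.2, 24.8, 27.6 and 22.6 CPM and SC-57461A replicates 1 to 4 had 28.1, 23.5, 24.3 and 26.4 CPM. The values of both treatments were interleaved over all libraries, though in set A both SC-57461A libraries were below both vehicle libraries. The log2 fold change was 0.00066 with a 95% interval of -0.24 to 0.24, that is 0.847 to 1.18 times the vehicle level (edgeR adjusted p = 0.999).

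**Figure D3:**
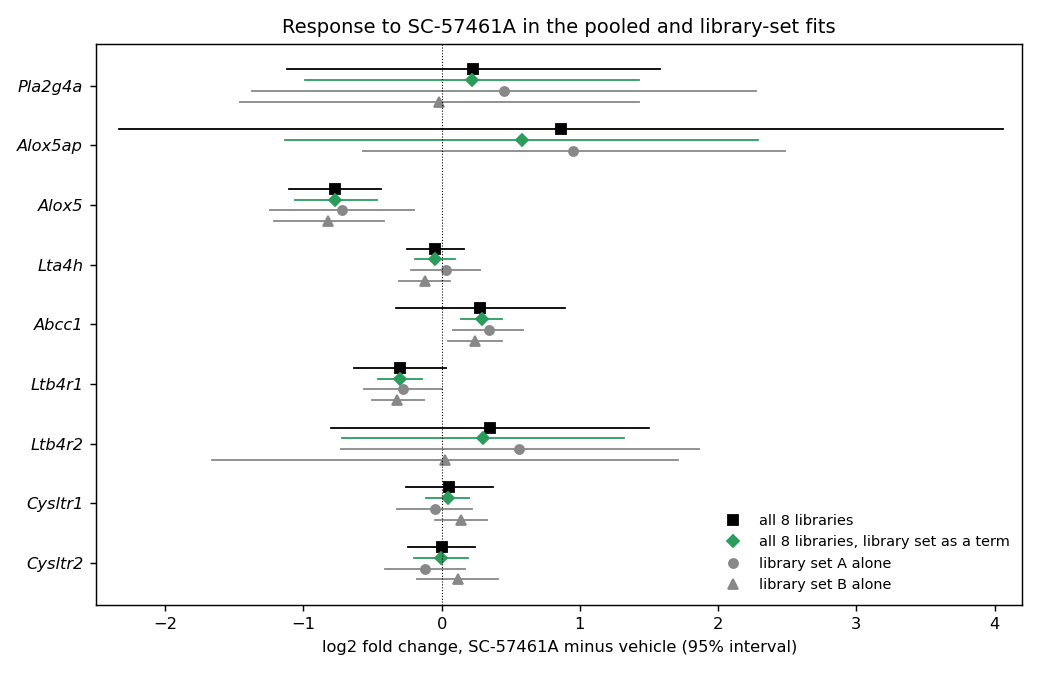
Log2 fold change (SC-57461A minus vehicle) with its 95% interval for the 9 fitted genes, from all 8 libraries (black), with library set as a term (green) and from either set alone (grey). Alox5 lies below 0 in all 4 fits, Abcc1 has the interval -0.33 to 0.89 without and 0.14 to 0.44 with the set term, and Alox5ap has no value from set B alone.

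Beyond the 10 members, 66 other genes of leukotriene handling in 8 lists were read from the same fits. Of the 40 with enough counts to be fitted, none was called in the pooled fit, and with library set as a term 1 was higher and 2 were lower, which is 7.5% beside 5.33% of all genes. Their median log2 fold change was -0.048 in the pooled fit. Treatments did not overlap for 4 of the 40, or 10%, beside 6.13% of all genes. Pla2g12a, a secreted phospholipase A2, went from 24.0 ± 1.01 to 32.6 ± 3.39 CPM (mean ± SD, n = 4) with no overlap (log2 0.44, edgeR adjusted p = 0.244, 0.0149 with the set term). Ggt1, a gamma-glutamyltransferase that can turn leukotriene C4 into D4, went from 5.97 ± 0.961 to 3.58 ± 0.811 CPM with no overlap (log2 -0.74, edgeR adjusted p = 0.382, 0.0382 with the set term). Mapk3, the kinase ERK1, went from 84.5 ± 10.3 to 71.2 ± 12.7 CPM with overlap (log2 -0.25, edgeR adjusted p = 0.878, 0.0402 with the set term). These calls were not kept in every fit that left out a library. Of 8 such fits with the set term, the call was lost in 3 for Pla2g12a, 6 for Ggt1 and 6 for Mapk3. The number of calls over all genes also shifted between these fits. The highest adjusted p among those edgeR fits was 0.0735, 0.139 and 0.169 in the same order.

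**Figure D4:**
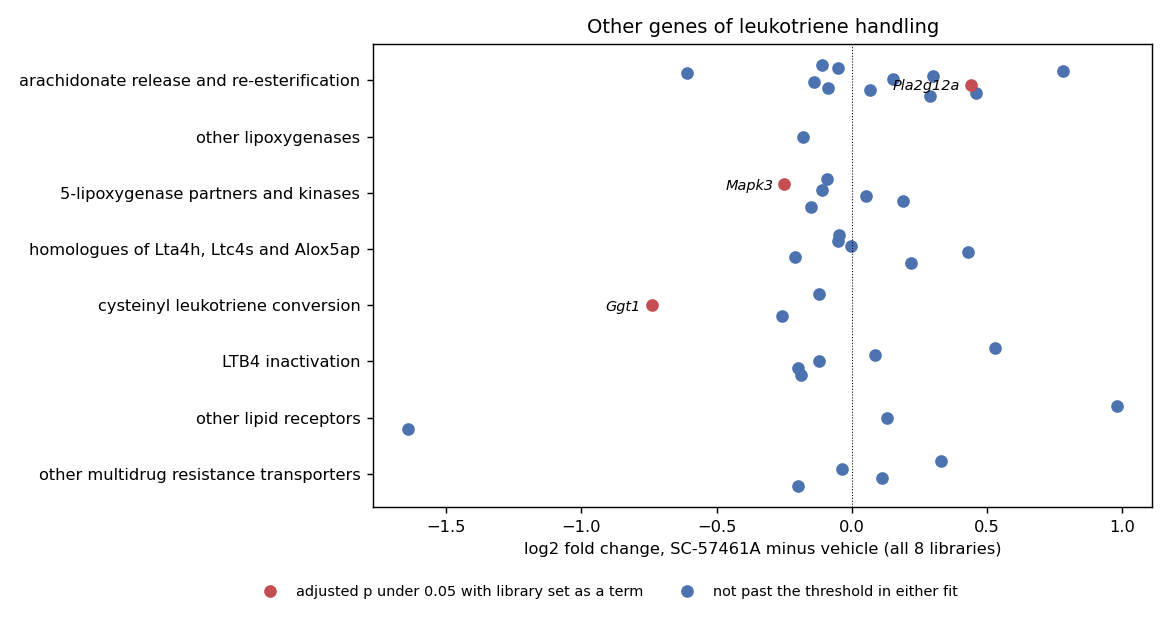
Log2 fold change from all 8 libraries of the 40 fitted genes of 8 further lists, 1 point per gene; red points passed an adjusted p under 0.05 with library set as a term. Pla2g12a (0.44) is the red point to the right of 0, and Ggt1 (-0.74) and Mapk3 (-0.25) are those to the left.

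By list, arachidonate release and re-esterification had 12 fitted genes with 1 higher with the set term, 5-lipoxygenase partners and kinases 6 with 1 lower, and conversion of cysteinyl leukotrienes 3 with 1 lower. No gene was called with the set term among 6 homologues of Lta4h, Ltc4s and Alox5ap, 5 genes of LTB4 inactivation, 3 other lipid receptors, 4 other multidrug resistance transporters and 1 other lipoxygenase. That lipoxygenase was Alox8, at 8.50 to 11.7 FPKM, while Alox12, Alox15, Alox12b, Alox12e and Aloxe3 were at or under 0.0434 FPKM. Alox8 had a mean of 42.3 ± 1.61 CPM with vehicle and 37.5 ± 1.02 CPM with the compound, with no overlap, and did not pass (log2 -0.18, edgeR adjusted p = 0.772, 0.14 with the set term).

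The most abundant gene of each list did not pass, Ggt1 apart. Cotl1, a coactosin-like protein that binds 5-lipoxygenase, stood at 261 to 454 FPKM, far above Alox5. Lpcat3, which returns arachidonate to phospholipids, stood at 51.5 to 60.2 FPKM (log2 0.065). Gpr132, a receptor for oxidised fatty acids, stood at 11.7 to 19.2 FPKM (0.13), Rnpep, an aminopeptidase related to Lta4h, at 9.83 to 15.7 FPKM (-0.050), Aldh3a2, a fatty aldehyde dehydrogenase, at 8.18 to 14.1 FPKM (-0.19) and Abcc4 at 3.67 to 8.21 FPKM (-0.035).

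Genes with a similar pattern over the 8 libraries were sought among about 6500 protein-coding genes with a mean of at least 5 FPKM, by Pearson's r of log2 CPM, as a description. Those most like Alox5 were Ptpn6 (r = 0.982), Mcl1 (0.974) and Rinl (0.974), and after centring within sets their r was 0.981, 0.973 and 0.975. Those most like Ltb4r1 were Sart1 (0.990), Vasp (0.982) and Ccnd3 (0.980), and those most like Lta4h were Nprl2 (0.890), Rrm2 (0.890) and Ubash3a (0.866). The points share libraries, treatments and library sets, and with 8 of them high values arise among many genes, so no p is given. None of these 9 genes was called in the pooled fit, and neither were Alox5 and Ltb4r1. In that fit the log2 fold changes, in the order named, were -0.35, -0.18 and -0.31 for those like Alox5. They were -0.23, -0.29 and -0.26 for those like Ltb4r1, and -0.092, -0.062 and -0.31 for those like Lta4h. Genes picked for likeness to a member take up its direction, so these values are no separate result.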

How the data were processed

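Total RNA of 8 ILC2 libraries was sequenced. Per the submitters' processing notes, cutadapt 4.7 and FastQC were used and reads were placed on mm10; no source used here names the aligner, the read counter, its handling of strands or the gene models. Per the file headers, the deposited table holds raw counts and the authors' FPKM values for each gene and library; 0 value columns had no matching sample. Of 25367 genes, 24998 were given a symbol from GENCODE M21 by gene identifier. After filterByExpr, which left 15095 genes, the counts were scaled by TMM and compared by edgeR 4.0.16 (quasi-likelihood test, R 4.3.3) (two-sided, Benjamini-Hochberg over all genes, threshold 0.05), and CPM values carry the same factors. Standard errors came from the fold change and its F statistic, and intervals from these. Chi-square over its degrees of freedom was 16.7 to 583 for the 28 pairs of libraries, within and across treatments and sets, far above sampling noise. Each library was counted as a sample, though these values cannot show that the libraries were independent. The code was tested on simulated counts. Library sets were parted at the widest gap in summed FPKM. Members, lists, library sets and alternatives were chosen with earlier results of these data known. Named genes are all members, genes of the 8 lists past the threshold in either fit, the most abundant gene of each list, and the 3 genes most like Alox5, Ltb4r1 and Lta4h; other genes were named after their values were seen. Of 72 names in the lists, 66 had a row in the table. Alternatives used limma 3.58.1 on log2(FPKM + 1) or log2(FPKM + 0.1), DESeq2 1.42.0, other scalings and filters, the replicate number as a block, and fits without each library.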

Additional observations from a re-analysis of the deposited data

How the results depend on the processing

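None of the 9 fitted members was called in the pooled fit, nor with another scaling, another count filter, limma, the replicate block, either set alone, or any library left out of the fit without the set term. DESeq2 without the set term called 1 member lower (Alox5, -0.77, adjusted p = 0.000318) and 0 higher. Library set as a term called 1 higher and 2 lower, as did DESeq2 with that term, which was added after the data had been seen; leaving out a library from the edgeR fit with the term gave 0 to 1 higher and 1 to 2 lower. In the 8 wider lists, 0 were called higher and 0 lower in the pooled fit and in each pooled fit that left out a library. DESeq2 called 1 higher, library set as a term 1 higher and 2 lower, and DESeq2 with that term 2 higher and 3 lower. Leaving out a library from the edgeR fit with the term gave 0 to 2 higher and 0 to 2 lower.

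Over all genes, the pooled fit called 41 higher and 9 lower; DESeq2 called 148 and 87, limma on log2(FPKM + 1) without a filter 24 higher, library set as a term 427 and 377, DESeq2 with that term 753 and 801, set A alone 77 and 21, and set B alone 86 and 16. Leaving out a library gave 25 to 31 higher and 3 to 7 lower without the set term. With it, leaving out vehicle replicates 1 to 4 and then SC-57461A replicates 1 to 4 called 178, 151, 483, 211, 264, 400, 263 and 160 higher and 147, 111, 490, 118, 158, 479, 240 and 89 lower. The replicate block called 14 higher and 1 lower. Same-numbered libraries correlated at -0.587, 0.635, -0.561 and 0.608 in their deviations from group means. The signs followed library set, which was not removed, so whether the numbers pair the libraries cannot be read from these values. Why the counts of called genes shifted between fits was not tested.

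Some directions turned. Lta4h was 0.029 and Cysltr1 -0.051 in set A alone, and Pla2g4a -0.016 in set B alone. Cysltr2 was -0.00039 with RLE factors, -0.018 with library totals, -0.016 without a count filter, -5.9e-05 with DESeq2, -0.026 with limma on log2(FPKM + 1) with and without a filter, -0.028 with log2(FPKM + 0.1), -0.0014 with the set term, -0.0021 with DESeq2 and that term, and -0.12 in set A. Leaving out a library without the set term gave Cysltr2 -0.055 to 0.038, Pla2g4a -0.18 to 0.55 and Cysltr1 -0.015 to 0.14. With the term, turned values were -0.017, -0.083, -0.042 and -0.0033 for Cysltr2, -0.13, -0.24 and -0.028 for Pla2g4a and -0.053 for Ltb4r2. No scaling moved the median of all genes by more than 0.1. Low counts limit Alox5ap, Pla2g4a, Ltb4r2 and Ltc4s.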
